A study of Homo sapiens with 6 samples.

Results

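Nucleoporins build the nuclear pore complex, the channel through which RNA and protein pass between the nucleus and the cytoplasm, and importins and exportins are the soluble receptors that carry cargo through it. The genes described here are the protein-coding genes of the GENCODE 44 annotation whose symbol begins with NUP and a digit, or with XPO, IPO, TNPO, KPNA or KPNB. Of 47 such genes, 41 had at least 1 edited cytidine (C) in the tables, among 7684 genes in all. They are represented by 52 isoforms of 9831. IPO4, KPNA4, KPNA7, NUP210L, NUP214 and XPO6 had no entry and were not analysed here.

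The data come from INSCRIBE, in which a purified fusion of the cytidine deaminase APOBEC1 and an anti-rabbit nanobody (Apo1-Nb) is directed in fixed cells to an RNA-binding protein by a rabbit antibody, so that C-to-U changes mark RNA near the protein. Cells were HEK293T, a human embryonic kidney line (also written HEK293XT in the labels), and RNA was read as full-length cDNA on 1 PacBio SMRT Cell per library. Each of 3 groups had 2 libraries. RBFOX2-INSCRIBE cells received the antibody against RBFOX2 and Apo1-Nb, enzyme-only cells received Apo1-Nb without that antibody, and buffer-only cells received neither. The enzyme-only libraries are called replicates 2 and 3 here, as in their titles, although another label numbers them from 1. Nothing in the labels says that the 2 libraries of a group came from separate cultures, so the p-values measure only the spread between these libraries, which may be technical. The tables list edited Cs and the fraction of reads edited at each, with no read numbers and no expression levels. The depth behind each value is therefore unknown, and the identity of the cells was not checked against marker genes.

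The 6 libraries listed 200632 and 205804 distinct edited Cs over all genes with RBFOX2-INSCRIBE, 85978 and 153714 with enzyme only, and 72695 and 71401 with buffer only. Enzyme-only replicate 2 thus lay nearer to the buffer-only libraries than to enzyme-only replicate 3. Some results that turn on either are also given without it, among them the summed ratios. Others, such as the shares and the order of libraries, are given with both only.

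Traffic through the pore depends on the small GTPase Ran. Importins bind cargo in the cytoplasm and release it in the nucleus when they meet Ran bound to GTP, whereas exportins bind cargo together with that form of Ran and release it outside. Importin alpha proteins (the KPNA genes) read the classical nuclear localisation signal and dock onto importin beta (KPNB1). RBFOX2 is a splicing regulator that binds the RNA word UGCAUG, often in introns and in 3′ UTRs.

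The words UGCAUG that lay beside the most recurrent edits in these genes were all in 3′ UTRs, in transcripts of XPOT, IPO7, NUP50, KPNA3 and TNPO1. They are shown because they place an RBFOX2 motif next to the edits in real transcript sequence. Each is 30 bases of hg38 written as RNA, 5′ to 3′ on the strand of the gene, with the motif in capitals. They were picked for 3 or more Cs within 50 nt that were edited in both RBFOX2-INSCRIBE libraries and in no control library, so their counts are a description with no test.
XPOT, chr12:64448311-64448340, plus strand: aaagaaguugccUGCAUGccgguccaaauu
IPO7, chr11:9446515-9446544, plus strand: ucucuuccuaacUGCAUGuugaaaaauaag
NUP50, chr22:45187399-45187428, plus strand: uuuuauauaugcUGCAUGccaaaaaaaaaa
KPNA3, chr13:49700998-49701027, minus strand: aaucaaaugcugUGCAUGguauuuuaccug
TNPO1, chr5:72909173-72909202, plus strand: ggggccuuguuuUGCAUGuugaugaagaac

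Around the XPOT motif, 13 and 9 of the 17 exonic Cs within 50 nt were edited in the RBFOX2-INSCRIBE libraries, against 2 and 5 with enzyme only and 0 and 1 with buffer only. At the IPO7 motif the numbers were 11 and 9 of 18 Cs, against 4 and 5 and against 3 and 3. The NUP50 motif had 7 and 5 of 14 Cs edited, against 0 and 4 and against 2 and 0. Both RBFOX2-INSCRIBE libraries stood above all 4 control libraries in these windows and in those of KPNA3 and TNPO1. The windows were picked for positions edited in no control, so this was favoured in advance. The KPNA3 motif showed 5 and 6 of 19 Cs, against 0 and 1 with enzyme only and 1 and 1 with buffer only. The TNPO1 motif showed 4 and 4 of 12, against 1 and 1 and against 0 and 0.

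Single Cs beside a motif are shown with the edited C in capitals. They are examples of positions found in both RBFOX2-INSCRIBE libraries and in none of the 4 controls.
TNPO1, chr5:72909188-72909217, plus strand: auguugaugaagaaCuacacaaagaaaacu
KPNB1, chr17:47669731-47669760, plus strand: uacagcugcauggaCuguaggcagaauuug
NUP50, chr22:45187399-45187428, plus strand: uuuuauauaugcugCaugccaaaaaaaaaa
The TNPO1 position was edited in 2.31% and 1.03% of the reads in RBFOX2-INSCRIBE replicates 1 and 2. The KPNB1 position was edited in 0.621% and 0.592%. The NUP50 C, which is the C of UGCAUG itself, was edited in 0.111% and 0.0932%. Read numbers are not listed, so percentages this low may rest on 1 edited read in a library.

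Summed over the 41 genes, 2155 and 2153 distinct Cs were edited in the RBFOX2-INSCRIBE libraries. The enzyme-only libraries had 742 and 1605, and the buffer-only libraries 665 and 697. Both RBFOX2-INSCRIBE libraries lay above all 4 controls, and the enzyme-only libraries lay far apart from each other. The ratio of group means was 1.84 for RBFOX2-INSCRIBE over enzyme only, where all genes gave 1.70, and 3.16 over buffer only, where all genes gave 2.82. Enzyme only over buffer only gave 1.72, where all genes gave 1.66. Each of these comparisons had a two-sided exact permutation p of 0.333, the smallest that 2 libraries against 2 allow. The first ratio dropped to 1.34 when enzyme-only replicate 2 was left out and came to 2.9 when replicate 3 was. In the same cases enzyme only over buffer only was 2.36 and 1.09. Over all genes enzyme-only replicate 2 also listed fewer edited Cs than replicate 3, 85978 against 153714. These shifts therefore do not set the genes apart from all genes.

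Taken as a share of all edited Cs in the library, the 41 genes held 1.07% and 1.05% with RBFOX2-INSCRIBE, 0.863% and 1.04% with enzyme only, and 0.915% and 0.976% with buffer only. The share ratio was 1.11 over enzyme only and 1.12 over buffer only, both nearer to 1 than the ratios of the numbers. The 1.11 rests on the 0.863% of enzyme-only replicate 2, since replicate 3 at 1.04% lay close to the RBFOX2-INSCRIBE libraries. IPO7, XPOT, NUP50 and KPNA2 were the most edited, and together held 33.4% of the edited Cs summed over the genes and libraries. Without them the ratios were 1.86, 3.28 and 1.77.

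Levels per gene are given as editsC, the distinct edited Cs as a percentage of all Cs in the exons of the listed isoforms. A class value pools its genes, as their summed edited Cs over their summed exonic Cs, averaged over the 2 libraries of a group. Across the classes of the pore and its receptors, this mean editsC with RBFOX2-INSCRIBE ran from 1.33% to 6.87%. The lowest was the membrane ring, of which NUP210 was the sole gene. The highest was the nuclear basket, where NUP50 stood at 15.6% and NUP153 at 0.362%. An edit can be listed only where reads cover the C, so editsC also moves with the number of reads of a gene; the part of read number in these levels was not tested.

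**Figure D1:**
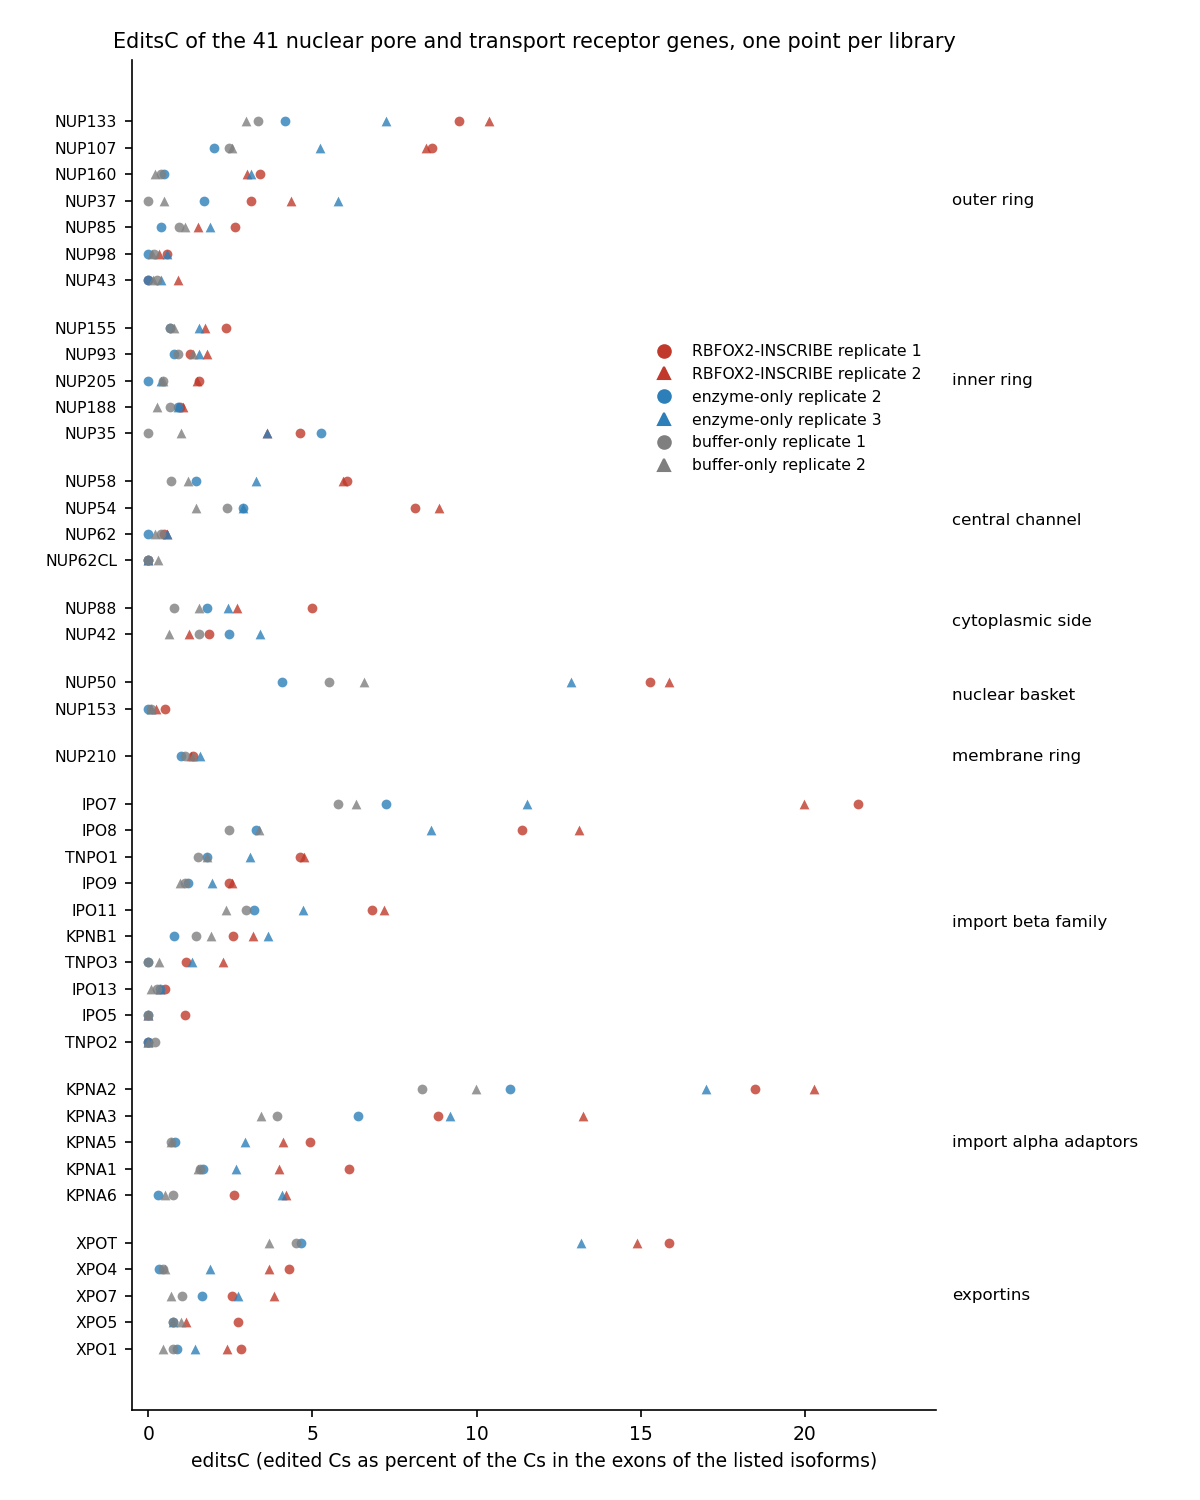
EditsC (edited Cs as a percentage of exonic Cs, horizontal axis) of the 41 genes, grouped by class, with 1 point per library: red for RBFOX2-INSCRIBE, blue for enzyme only, grey for buffer only, and marker shape for the replicate. IPO7 reached 20.8% on average with RBFOX2-INSCRIBE, and the blue triangle of enzyme-only replicate 3 lies to the right of the blue circle of replicate 2 in most of the highly edited genes.

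The importin beta family, which carries cargo into the nucleus directly or through importin alpha, had a mean editsC of 4.73% with RBFOX2-INSCRIBE, 2.46% with enzyme only and 1.56% with buffer only. IPO7, an importer of ribosomal proteins and histones among others, had 236 and 218 edited Cs in the RBFOX2-INSCRIBE libraries, 79 and 126 with enzyme only, and 63 and 69 with buffer only. The 3 groups of IPO7 did not overlap. Its editsC was 20.8% ± 1.17 (SD, n = 2), 9.40% ± 3.05 and 6.05% ± 0.389, over 1091 exonic Cs of the gene at chr11:9384652-9448127, plus strand.

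IPO8, a close relative of IPO7, had 111 and 128 edited Cs with RBFOX2-INSCRIBE, against 32 and 84 and against 24 and 33. IPO9, an importer of histones and actin, had 62 and 64, against 30 and 49 and against 28 and 24. TNPO1, which imports hnRNP proteins, had 67 and 69, against 26 and 45 and against 22 and 26. In these genes too both RBFOX2-INSCRIBE libraries were above every control library. KPNB1, importin beta itself, overlapped the control, with 46 and 57 edited Cs against 14 and 65 with enzyme only and 26 and 34 with buffer only. TNPO3, the importer of serine- and arginine-rich splicing factors, had 11 and 22, against 0 and 13 and against 0 and 3. IPO11 had 55 and 58, against 26 and 38 and against 24 and 19, whereas IPO13 had at most 6 in any library, IPO5 was edited in RBFOX2-INSCRIBE replicate 1 alone (8 Cs), and TNPO2 in buffer-only replicate 1 alone (3 Cs).

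The importin alpha adaptors had a mean editsC of 6.66% with RBFOX2-INSCRIBE, 3.99% with enzyme only and 2.10% with buffer only. KPNA2 was the most edited of them, with 124 and 136 Cs, against 74 and 114 and against 56 and 67. Its editsC of 19.4% ± 1.26 (SD, n = 2) stood beside 14% ± 4.22 with enzyme only and 9.17% ± 1.16 with buffer only. KPNA5 had 92 and 77 edited Cs, against 15 and 55 and against 13 and 13. The groups of KPNA2 and of KPNA5 did not overlap. KPNA3 did overlap the enzyme-only group, with 72 and 108 Cs against 52 and 75, and both stood above the 32 and 28 of buffer only. KPNA6 overlapped it as well, with 46 and 74 against 5 and 72, and had 13 and 9 with buffer only. KPNA1 had 89 and 58, against 24 and 39 and against 23 and 22.

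Exportins had a mean editsC of 5.39%, 2.72% and 1.33% in the same order of groups. XPOT, the exporter of tRNA, had 194 and 182 edited Cs with RBFOX2-INSCRIBE, 57 and 161 with enzyme only and 55 and 45 with buffer only. Its editsC was 15.4% ± 0.694 (SD, n = 2), 8.92% ± 6.02 and 4.09% ± 0.579 over the gene at chr12:64404392-64451125, plus strand. Both RBFOX2-INSCRIBE libraries were above all others, and enzyme-only replicate 3 came close to them. XPO4, which exports the translation factor eIF5A, had 77 and 66 Cs, against 6 and 34 and against 8 and 9. XPO5, the exporter of microRNA precursors, had 36 and 15, against 10 and 10 and against 10 and 13, and XPO7 had 30 and 45, against 19 and 32 and against 12 and 8.

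XPO1, the exporter of proteins with leucine-rich export signals, is the member that the study itself names. The study names it for known TDP-43 binding sites captured with an antibody against TDP-43, which no library here received. The gene lies at chr2:61476032-61538741 on the minus strand, and 924 exonic Cs were counted. RBFOX2-INSCRIBE replicates 1 and 2 had 26 and 22 edited Cs, enzyme-only replicates 2 and 3 had 8 and 13, and the buffer-only libraries had 7 and 4. The groups did not overlap. EditsC was 2.60% ± 0.306 (SD, n = 2), 1.14% ± 0.383 and 0.595% ± 0.230, which was below the pooled value of the exportins in every group. Most of these edits lay in the coding sequence (13 and 14 with RBFOX2-INSCRIBE), 6 and 6 lay in the 5′ UTR and 7 and 2 in the 3′ UTR. In the 5′ UTR the enzyme-only libraries had 1 and 5 and the buffer-only libraries 1 and 1.

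Of the Cs of XPO1, 1 was edited in both RBFOX2-INSCRIBE libraries and in no control, at chr2:61537659 in the 5′ UTR, in 7.69% and 1.54% of the reads. Read numbers are not listed, so each of these percentages may rest on 1 edited read. That C is the capital in this window.
XPO1, chr2:61537644-61537673, minus strand: uugaggugggaaaaCugaaacccaccuuga
The exons of XPO1 hold 4 UGCAUG words, and 3 and 0 edited Cs lay within 50 nt of them with RBFOX2-INSCRIBE, 1 and 0 with enzyme only and 1 and 0 with buffer only. They also hold 18 UGUGUG words, the kind of GU repeat that TDP-43 binds. Near these, 0 and 2 Cs were edited with RBFOX2-INSCRIBE, 1 and 2 with enzyme only and 1 and 0 with buffer only, so the groups overlapped at both words.

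The scaffold of the pore includes the outer ring (the Y-shaped complex) and the inner ring. Mean editsC of the outer ring was 4.01% with RBFOX2-INSCRIBE, 2.17% with enzyme only and 1.10% with buffer only, and that of the inner ring was 1.65%, 1.04% and 0.708%. In the outer ring, NUP133 had 102 and 112 edited Cs, against 45 and 78 and against 36 and 32. NUP107, its binding partner in the Y complex, had 99 and 97, against 23 and 60 and against 28 and 29. NUP37, another member of the Y complex, had 13 and 18 against 7 and 24 with enzyme only and 0 and 2 with buffer only. NUP107 and NUP133 kept the RBFOX2-INSCRIBE libraries above all controls, whereas those of NUP37 fell between the enzyme-only libraries. NUP160, NUP85 and NUP43 had at most 36, 14 and 7 edited Cs in a library. NUP98, whose precursor also yields the Y-complex subunit NUP96, had 11 and 6, against 0 and 11 and against 3 and 2.

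In the inner ring, NUP155 had 40 and 29 edited Cs, against 11 and 26 and against 11 and 13. NUP205 had 21 and 20, against 0 and 5 and against 6 and 6, so its enzyme-only libraries were below those of buffer only. NUP93, the hub to which the other inner ring proteins attach, had 24 and 34, against 15 and 29 and against 17 and 26, and its 3 groups overlapped. NUP35 had 14 and 11, against 16 and 11 and against 0 and 3. NUP188 had 15 and 16, against 14 and 14 and against 10 and 4.

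The central channel proteins NUP54, NUP58 and NUP62 carry phenylalanine-glycine repeats that form the permeability barrier. Their class, with the NUP62 relative NUP62CL, had a mean editsC of 4.02% with RBFOX2-INSCRIBE, 1.55% with enzyme only and 0.782% with buffer only. NUP54 had 34 and 37 edited Cs, against 12 and 12 and against 10 and 6. NUP58 had 96 and 94, against 23 and 52 and against 11 and 19. Both genes kept their RBFOX2-INSCRIBE libraries above every control. NUP62, the third channel protein, had at most 6 edited Cs in a library, and NUP62CL had 1, in buffer-only replicate 2.

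At the nuclear basket, NUP50, a cofactor of importin alpha recycling, had 158 and 164 edited Cs, against 42 and 133 and against 57 and 68. Its editsC was 15.6% ± 0.410 (SD, n = 2), 8.46% ± 6.22 and 6.04% ± 0.752 at chr22:45163925-45188017. The spread of the enzyme-only group was the widest of those given for single genes. NUP153, a basket protein that binds importins, had 7 and 3 edited Cs and at most 1 in any control. On the cytoplasmic side, NUP88 had 39 and 21, against 14 and 19 and against 6 and 12. NUP42, which acts with GLE1 in mRNA export, had 6 and 4, against 8 and 11 and against 5 and 2, the one tested gene with both RBFOX2-INSCRIBE libraries below both enzyme-only libraries. The membrane protein NUP210 had 33 and 31, against 24 and 38 and against 27 and 33, and its groups overlapped.

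The comparison of RBFOX2-INSCRIBE with enzyme only asks which RNAs were edited beyond what the untargeted deaminase does. On the log2 scale of edited Cs plus 0.5 over exonic Cs, 34 of the 41 genes had enough edits to be tested, a mean of at least 5 over the libraries compared. The median difference was 1.04, where all 5088 genes tested gave 0.85, and 32 of the 34 were higher on average. Both RBFOX2-INSCRIBE libraries were above both enzyme-only libraries in 21 of the 34 (61.8%), against 51.8% of all genes tested. With limma and Benjamini-Hochberg adjustment 0 of the 34 passed an adjusted p of 0.05, against 0.118% of all genes. The unadjusted limma p was under 0.05 in 8 of the 34 and in 864 of all 5088 genes.

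The largest of these differences was that of NUP205, 3.66 (SE 1.25, limma adjusted p = 0.159). Next came TNPO3 with 2.63 (SE 1.17, limma adjusted p = 0.263) and XPO4 with 2.26 (SE 0.75, limma adjusted p = 0.152). NUP98 had 1.85 (SE 1.64) and KPNA6 1.56. In NUP205, TNPO3 and NUP98 enzyme-only replicate 2 had 0 edited Cs, so these differences depend on the 0.5 added. In TNPO3, NUP98 and KPNA6 the RBFOX2-INSCRIBE and enzyme-only libraries overlapped. NUP54 and KPNA5 were at 1.52 and 1.53, NUP58 at 1.44 and NUP107 at 1.39. IPO7, IPO8 and XPO1 were at 1.18, 1.19 and 1.19, and NUP50 at 1.10. The lowest were NUP42 at -0.87 (SE 0.72), NUP35 at -0.09 and NUP210 at 0.08.

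These values rest on how the enzyme-only libraries are weighed. Without enzyme-only replicate 3, 15 of the genes passed (IPO7, IPO8, KPNA2, KPNA5, KPNA6, NUP50, NUP54, NUP58, NUP107, NUP133, NUP160, NUP205, TNPO3, XPO4 and XPOT), as did 1696 genes in all. Without replicate 2 none passed, and the median was 0.27, below the 0.35 of all genes. Scaling each library to the same total moved the median of all genes to 0.05 and that of these genes to 0.23, with 22 of 34 higher. At an edit fraction of at least 0.02 the median of these genes was 0.56, below the 0.80 of all genes.

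**Figure D2:**
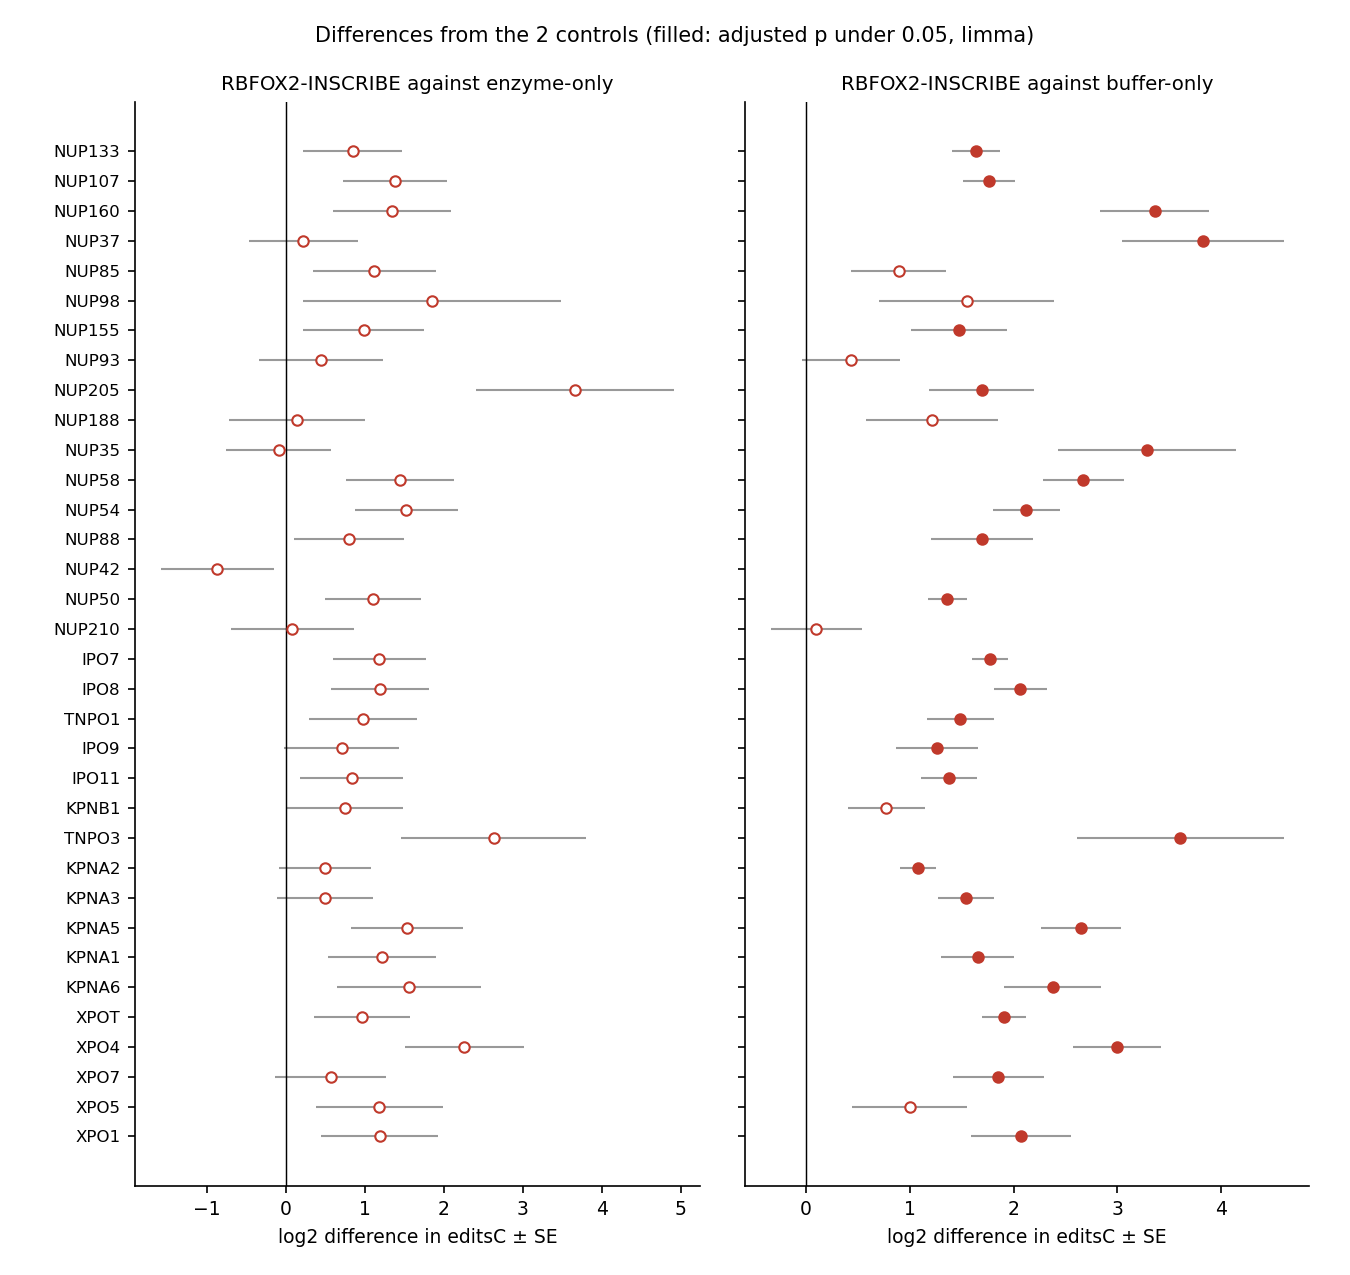
Log2 differences in editsC of each tested gene with standard errors (horizontal axis), for RBFOX2-INSCRIBE against enzyme only and against buffer only, with filled points for limma adjusted p under 0.05, open points for the other tested genes and a line at 0. Against buffer only 26 of 33 points are filled and against enzyme only 0 of 34.

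Against buffer only, which measures the changes seen without any enzyme, 33 of the 41 genes were tested and 26 were higher with limma at an adjusted p under 0.05 (78.8%), where 61.2% of all genes passed. The median difference was 1.69, against 1.54 for all 4802 genes. Both RBFOX2-INSCRIBE libraries were above both buffer-only libraries in 31 of 33 (93.9%, all genes 80.7%). By class, 6 of 7 tested genes of the importin beta family, 5 of 5 importin alpha adaptors, 4 of 5 exportins, 4 of 6 outer ring, 3 of 5 inner ring and 2 of 2 central channel genes passed, with 1 of 1 at the basket and on the cytoplasmic side and 0 of 1 in the membrane ring.

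The smallest adjusted p were those of IPO7, with 1.77 (SE 0.17, limma adjusted p = 0.000558), and XPOT, with 1.91 (SE 0.21, limma adjusted p = 0.000643). IPO8 followed at 2.06, NUP50 at 1.36, NUP107 at 1.76, XPO4 at 3.0, NUP133 at 1.64, KPNA5 at 2.65, NUP58 at 2.67 and NUP54 at 2.12. XPO1 was higher by 2.07 (SE 0.48, limma adjusted p = 0.00867). KPNB1 at 0.77, XPO5 at 1.00, NUP93 at 0.43 and NUP210 at 0.10 did not pass, nor did NUP85, NUP98 and NUP188. Without RBFOX2-INSCRIBE replicate 1 or without replicate 2 none passed, nor did any other gene, and without a buffer-only library 21 or 22 did. With libraries scaled to the same total 0 passed and 23 of 33 were higher, with a median of 0.25 (all genes 0.10). At a mean of at least 10 edited Cs, 23 of 28 passed, where 2633 of all 3370 genes did. At an edit fraction of at least 0.02, 1 of 12 passed, a lower share than the 639 of 1817 over all genes. The median was then 1.48, below the 1.86 of all genes.

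The enzyme-only and buffer-only groups were compared for the effect of Apo1-Nb without an antibody. With limma 2 of 31 genes tested were called, NUP37 with a difference of 3.60 (SE 0.77, limma adjusted p = 0.00158) and NUP35 with 3.38 (SE 0.72, limma adjusted p = 0.00158), where 0.547% of all genes passed. When any single library was left out neither was called: NUP37 fell under the minimum of edited Cs without enzyme-only replicate 3 and NUP35 without replicate 2, and in the other cases they were tested and did not pass. The median was 0.74 (all genes 0.69), and both enzyme-only libraries were above both buffer-only libraries in 19 of 31 genes (61.3%, all genes 44.4%). The comparison shares its libraries with those above.

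At the level of isoforms, 37 of the 52 had enough edits for RBFOX2-INSCRIBE against enzyme only. Of these 0 passed limma's adjusted p, against 0.0525% of all isoforms. The unadjusted limma p was under 0.05 in 6 of the 37 and in 926 of all 5715 isoforms. The median difference was 0.97 (all isoforms 0.87). It was 1.54 (all isoforms 1.33) without enzyme-only replicate 3 and 0.27 (all isoforms 0.36) without replicate 2. At an edit fraction of at least 0.02 it was 0.49 (all isoforms 0.85). Both RBFOX2-INSCRIBE libraries were above both enzyme-only libraries in 23 of the 37, where 51.2% of all isoforms were. Against buffer only 28 of 36 passed limma's test, where 60.1% of all isoforms did, and 3 passed without RBFOX2-INSCRIBE replicate 1 or without replicate 2, when 357 and 324 of all isoforms did. In 34 of 36 both RBFOX2-INSCRIBE libraries were above both buffer-only libraries, where 79.9% of all isoforms were.

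NUP58 had 2 listed protein-coding isoforms. The longer transcript, ENST00000463407 of 6467 nt, had 36 and 37 edited Cs with RBFOX2-INSCRIBE, 4 and 0 with enzyme only and 0 and 5 with buffer only. The shorter, ENST00000381736 of 4236 nt, had 60 and 57, against 19 and 52 and against 11 and 14. Against enzyme only the longer transcript differed by 4.62 (SE 1.12, limma adjusted p = 0.110) and the shorter by 0.88. The KPNA6 transcript ENST00000471599, annotated as a target of nonsense-mediated decay, had 25 and 58 edited Cs with RBFOX2-INSCRIBE, 0 and 36 with enzyme only and none listed with buffer only. The protein-coding KPNA6 transcript ENST00000373625 had 22 and 17, 5 and 40, and 13 and 9.

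Whether 2 isoforms of a gene differed in their response to RBFOX2-INSCRIBE could be tested in KPNA6, KPNB1, NUP58 and TNPO1. With limma 0 of these 4 and 0% of 580 genes tested were called, and none of the 4 had an unadjusted p under 0.05 (28 of the 580 did). The shorter NUP58 isoform differed from the longer by -3.74 (SE 1.61), the KPNA6 isoforms by 2.77 (SE 1.33) with the decay transcript higher, and those of TNPO1 and KPNB1 by 0.45 and 0.44. The limma adjusted p were between 0.798 and 0.895.

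A line fitted across isoforms, of editsC with RBFOX2-INSCRIBE on that with enzyme only at edits of 2% of reads or more, picked the isoforms lying more than 1.5 residual SDs above it. Of 20 isoforms of these genes that entered, 1 was picked, NUP37 ENST00000552283, where 6.61% of all 3238 isoforms were. It had 0.482% with enzyme only and 1.69% with RBFOX2-INSCRIBE. Its residual was 1.65 SDs, and that of the next isoform, of XPO4, was 1.10. Without enzyme-only replicate 2 27 entered and none was picked.

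Each edited C was placed against the UGCAUG words on the same strand of the gene, introns included. Of the 48934 exonic Cs of these genes, 1287 (2.63%) lay within 50 nt of one, where 2.37% did over all genes. The share among edited Cs was divided by that share, so that 1 means no more than the exonic Cs themselves. The ratio was 1.5 and 1.55 in the RBFOX2-INSCRIBE libraries, 1.02 and 1.04 with enzyme only and 1.2 and 1.04 with buffer only. Both RBFOX2-INSCRIBE libraries were above all 4 controls. The means were 1.53 ± 0.0384 (SD, n = 2), 1.03 ± 0.0124 and 1.12 ± 0.116, with a two-sided exact permutation p of 0.333 for RBFOX2-INSCRIBE against either control. Genes other than these had 1.78 and 1.79 with RBFOX2-INSCRIBE.

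The shorter word GCAUG, which every UGCAUG contains, gave 1.16 and 1.23 with RBFOX2-INSCRIBE, 1.2 and 0.872 with enzyme only and 1.18 and 1.08 with buffer only. UGUGUG gave 1.29 and 1.34, 1.40 and 1.37, and 1.11 and 1.31. For both words the groups overlapped or the enzyme-only libraries were the higher, unlike UGCAUG.

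**Figure D3:**
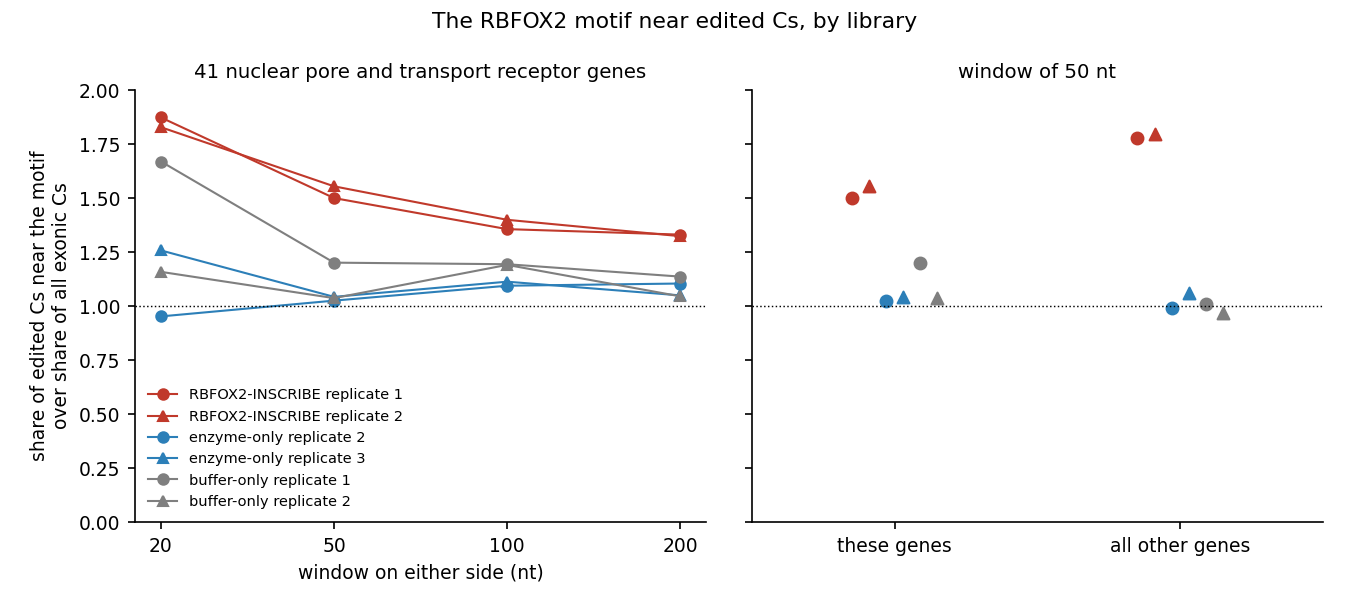
Share of edited Cs near the RBFOX2 motif divided by the share of all exonic Cs near it (vertical axis), 1 point per library, at windows of 20 to 200 nt for these genes (left) and at 50 nt for these and all other genes (right), with a dotted line at 1. At 50 nt the RBFOX2-INSCRIBE points sit at 1.5 and 1.55 for these genes and at 1.78 and 1.79 for the others, above the controls in both.

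Of 5979 distinct edited positions, 4442 (74.3%) were seen in 1 library only, and none in all 6, since positions found everywhere had been removed before deposition. Both RBFOX2-INSCRIBE libraries shared 591 positions (27.5% of the smaller), both enzyme-only libraries 120 (16.2%) and both buffer-only libraries 53 (7.97%). Over all genes these shares were 25.1%, 13.3% and 9.24%, and 77.0% of positions were seen in 1 library only. Of the 591, 312 (52.8%) were in no control, where 51.8% were over all genes.

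Of the 591, 34 (5.75%) were within 50 nt of UGCAUG. Of the 312 that were also in no control, 22 were (7.05%), whereas of the 2387 found in a single RBFOX2-INSCRIBE library and nowhere else, 84 were (3.52%). Among the 120 shared by the enzyme-only libraries 1 was (0.833%), and among the 1245 found in a single enzyme-only library and nowhere else 31 were (2.49%). The share near the motif was thus larger for recurrent than for single positions with RBFOX2-INSCRIBE. With enzyme only it was smaller, but on 1 position near the motif. The 591 and the 120 include positions also found in other groups, which the single positions do not. No share over all genes was set beside these. These are counts along the same transcripts and carry no test.

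The 312 positions were spread over 29 of the genes, led by IPO7 with 48, XPOT with 38, NUP107 with 26, IPO8 with 25 and NUP50 with 23. Those of IPO7 were 48 of its 1091 exonic Cs. Positions seen in both enzyme-only libraries and nowhere else numbered 48, and those seen in both buffer-only libraries and nowhere else 23. In the annotation, 210 of the 312 (67.3%) were in 3′ UTRs, 96 in coding sequence and 3 in 5′ UTRs. In 265 of the 307 whose base before the C was read, that base was A or U. The 22 near a motif were in IPO7, IPO9, KPNA3, KPNA5, KPNB1, NUP50, NUP210, TNPO1 and XPOT.

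Exons of 32 of the genes held 73 UGCAUG words, 36 in 3′ UTRs and 37 in coding sequence. At least 1 edited C lay within 50 nt of 40 of them with RBFOX2-INSCRIBE, of 28 with enzyme only and of 21 with buffer only. Such counts rise with the number of edited Cs, which was highest with RBFOX2-INSCRIBE. No expectation was set beside them, so they do not measure a preference for the motif. The windows of XPOT and IPO7 printed above had the highest numbers of edited Cs among the 5 shown.

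**Figure D4:**
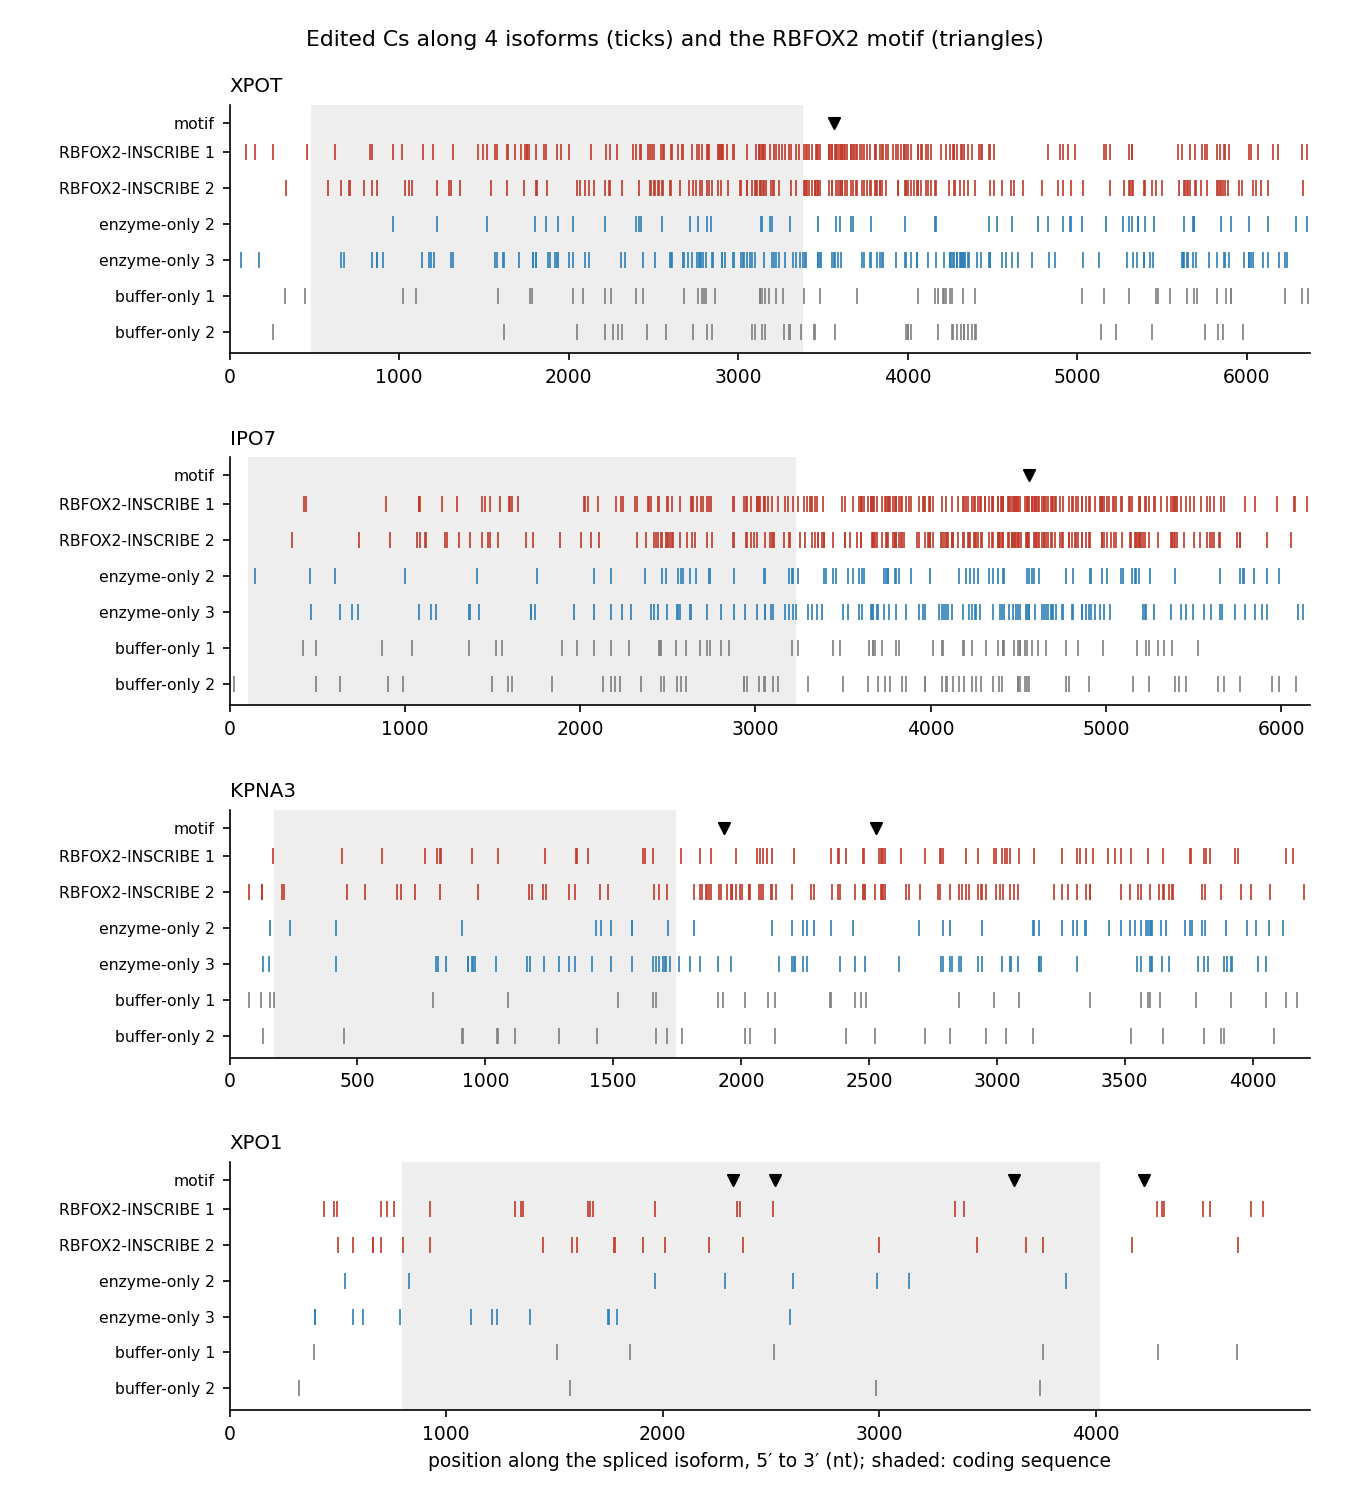
Edited Cs along the spliced isoforms of IPO7, XPOT, KPNA3 and XPO1 (horizontal axis, position in nt from the transcript start), with 1 row of ticks per library, the coding sequence shaded and the RBFOX2 motif marked by triangles. The coding sequence of IPO7 ends at 3229 of 6162 nt and that of XPOT at 3376 of 6370 nt, and ticks of the RBFOX2-INSCRIBE libraries are dense beyond these points.

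Over the 46 protein-coding isoforms, 56.7% and 55.5% of edited Cs lay in the 3′ UTR with RBFOX2-INSCRIBE, 53.1% and 53.7% with enzyme only and 45.8% and 45.3% with buffer only. Per exonic C, the 3′ UTR was edited 1.91 and 1.83 times as often as the coding sequence with RBFOX2-INSCRIBE, 1.67 and 1.72 times with enzyme only and 1.28 and 1.22 times with buffer only. The groups did not overlap (two-sided exact permutation p = 0.333). All genes had lower ratios, 1.68 and 1.76, 1.14 and 1.34, and 0.904 and 0.892.

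APOBEC1 prefers Cs that follow A or U. A or U stood before 76.1% and 76.9% of the edited Cs with RBFOX2-INSCRIBE, 62.8% and 74.1% with enzyme only and 45.4% and 48.2% with buffer only, where 50.6% of all exonic Cs of these genes follow A or U. Both buffer-only libraries were thus below that share and all 4 libraries that received Apo1-Nb above it (two-sided exact permutation p = 0.333 for each pair of groups).

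**Figure D5:**
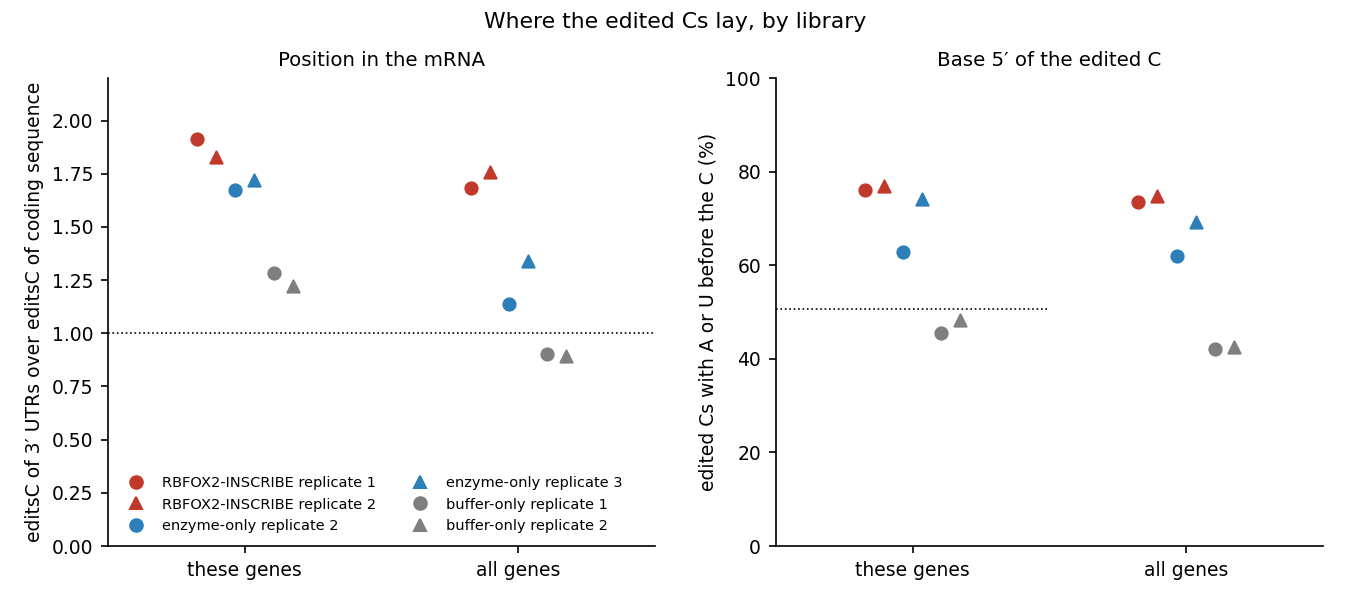
Left, edited Cs per exonic C in the 3′ UTR over the same in the coding sequence, and right, the percentage of edited Cs preceded by A or U, with 1 point per library for these genes and for all genes. The RBFOX2-INSCRIBE libraries are the highest in both panels, for these genes at 1.83 to 1.91 and at 76.1% to 76.9%, and the dotted line of the right panel is the 50.6% of all exonic Cs of these genes.

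Most edits were rare among the reads. The median percentage of reads edited was 0.510% and 0.468% with RBFOX2-INSCRIBE, 0.683% and 0.5% with enzyme only, and 0.408% and 0.417% with buffer only. Edits of 2% or more numbered 275 and 225, 134 and 185, and 85 and 79. As a share of a library's edits these were 12.7% and 10.4%, 18.1% and 11.5%, and 12.8% and 11.3%. The RBFOX2-INSCRIBE libraries thus had the most edits of 2% or more by number but not by share, and their medians overlapped those of enzyme only. Edits over 10% of reads numbered 15 and 19, 18 and 9, and 9 and 10. The enzyme-only group overlapped both others, and the RBFOX2-INSCRIBE libraries were above the buffer-only libraries. Of the 312 recurrent positions, 20 reached 1% in both libraries, and the median of the lower value was 0.315%.

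A list of 21 other genes of the pathway, such as RAN, its regulators and pore proteins with other names, had 18 genes with edits. Against enzyme only, 0 of 15 tested passed with limma, with a median of 0.84 (all genes 0.118% and 0.85). An unadjusted p under 0.05 was found in 1 of the 15 and in 864 of all 5088 genes. Against buffer only 8 of 15 were higher with limma, with a median of 1.09, where 61.2% of all genes passed with a median of 1.54. Enzyme only against buffer only gave 0 of 14 with limma, where 0.547% of all genes passed. There 1 of the 14 and 638 of all 4208 genes had an unadjusted p under 0.05. SEH1L, a Y-complex subunit, had 80 and 121 edited Cs with RBFOX2-INSCRIBE, 13 and 24 with enzyme only and 10 and 10 with buffer only, a difference of 3.24 from buffer only (SE 0.28, limma adjusted p = 0.000544) and of 2.44 from enzyme only (SE 0.64, limma adjusted p = 0.0764). CSE1L, the exporter that returns importin alpha, had 162 and 163, against 47 and 131 and against 78 and 74. RANBP1, a Ran regulator, had 85 and 42, against 108 and 49 and against 62 and 53, with the groups overlapping.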

How the data were processed

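The authors deposited, per library, a table of edited Cs with position, isoform and the fraction of reads edited, mapped to hg38, with no read numbers. Per their methods, reads were assigned to isoforms with IsoQuant (unique assignments), and edits in all libraries or in dbSNP were removed. The annotation release used for these long reads is not given in the sources used here, and GENCODE 44 was used. Edits on the strand and in exons of the listed isoform were counted, and distinct positions were summed per gene. Differences of log2((edited Cs + 0.5)/exonic Cs) were fitted over every gene or isoform averaging 5 or more edited Cs between the compared groups, using limma 3.58.1 in R 4.3.3 (lmFit, eBayes with trend and robust) and Benjamini-Hochberg adjustment at 0.05. Sums and ratios were compared by two-sided exact permutation. Counting used Python 3.11.15, numpy 2.4.6, pandas 2.3.3 and matplotlib 3.10.9, and the fits were tested on simulated data.

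Members and lists were chosen with earlier results of these data known. Genes named were XPO1, the 2 most edited per class, the 5 largest and 3 smallest differences from enzyme only, calls, the 10 smallest p against buffer only, picks of the line, and genes with a recurrent position near UGCAUG. Others are named to complete their class and were chosen after their values were seen. Alternatives changed the pseudocount, filters, scaling, strand, block, window and libraries. Labels numbered libraries in each group, and deviations of same-numbered libraries correlated at 0.110, 0.0469 and -0.0245 over 4799 genes, so no block was used.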

Additional observations from a re-analysis of the deposited data

How the results depend on the processing

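Of 675 alternatives run over the results, 541 were labelled the same, 45 lost and 14 gained a call, 54 values moved and 21 reversed. For the 492 on single genes, the same meant direction and side of the threshold, and 412 kept both. Counts, medians and ratios were labelled the same when they moved by less than a set limit. Depth is unknown, so precision beyond the spread of 2 libraries cannot be given, and where a cause is not named it was not tested. Where a library was left out, the lone library of its group was assumed to vary like those of the other group.

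Genes called against enzyme only stayed at 0 in every alternative that kept all libraries. Against buffer only 26 of 33 became 0 of 33 with libraries scaled to the same total and 23 of 28 with a mean of 10. At an edit fraction of at least 0.02 they became 1 of 12, where 639 of all 1817 genes passed. Enzyme only against buffer only fell from 2 to 0 at a mean of 10 edited Cs, with scaling, at an edit fraction of at least 0.02 and without any library, and to 1 with both strands. Isoforms called against enzyme only were 1 with a pseudocount of 1 or a mean of 10, and 0 to 19 as libraries were left out, and against buffer only 1 with scaling, 0 at an edit fraction of at least 0.02 and 3 to 24. The line picked 0 isoforms at 2 SDs, 2 when edits in any library sufficed, and 0 to 1 as libraries were left out. With the replicate number as a block, 0, 26 and 2 genes were called in the comparisons of genes, and 0 within genes. Isoforms called were then 2 of 37 against enzyme only (all isoforms 68 of 5715). Against buffer only they were 27 of 36 (all isoforms 3021 of 5361). The replicate numbers are not shown to pair the libraries. Over all genes, the 6 calls against enzyme only were 30 and 0 with pseudocounts of 1 and 0.1, 0 and 22 with means of 1 and 10, 0 with scaling, 0 at an edit fraction of at least 0.02, 1 with both strands, 1 with all 3 groups in the fit and 28 with the block. The 2937 against buffer only were 15 with scaling, 639 at that edit fraction, and 0 without RBFOX2-INSCRIBE replicate 1 or without replicate 2. The 23 of enzyme only against buffer only were 64 with all 3 groups, 35 with a pseudocount of 0.1, 8 with a mean of 1, 5 with a mean of 10, 0 with scaling, 0 at that edit fraction, 8 with the block, 1 without buffer-only replicate 1 and 0 without any other single library.

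The motif ratio of 1.53 with RBFOX2-INSCRIBE was 1.85, 1.38 and 1.33 at windows of 20, 100 and 200 nt, 1.2 for GCAUG, 1.91 at an edit fraction of at least 0.02, and 1.5 to 1.55 over single libraries. With enzyme only it was 1.10, 1.10 and 1.08 at those windows, 1.43 at that edit fraction, 0.996 along spliced isoforms, and 1.02 to 1.04. The buffer-only libraries were at 1.67 and 1.16 at 20 nt, against 1.87 and 1.83 with RBFOX2-INSCRIBE, and at 1.79 and 1.44 at that edit fraction, against 1.80 and 2.03, on 4 and 3 edited Cs near the motif against 13 and 12. The summed ratio over enzyme only ran from 1.34 to 2.9 as libraries were left out. That over buffer only was 1.12 as a share of all edits, 3.05 at that edit fraction and 3.06 with both strands, and 3.09 to 3.24 as libraries were left out. Enzyme only over buffer only ran from 1.09 to 2.36.

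Against enzyme only, scaling turned IPO9 to -0.10, KPNA2 to -0.32, KPNA3 to -0.32, KPNB1 to -0.060, NUP37 to -0.57, NUP88 to -0.0090, NUP93 to -0.36 and NUP210 to -0.73, and against buffer only NUP50 to -0.12. An edit fraction of at least 0.02 turned KPNA6 to -0.28, KPNB1 to -1.04 and TNPO1 to -0.11. As libraries were left out, the difference from enzyme only ran from -0.30 to 3.42 for KPNA6, -0.34 to 1.83 for KPNB1, -0.35 to 0.17 for NUP35, -0.63 to 1.08 for NUP37, -0.021 to 0.91 for NUP93, -0.41 to 4.11 for NUP98 and -0.25 to 0.41 for NUP210.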
